A study of Mus musculus with 10 samples.

Results

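The genes described here are 9 complement components and receptors of the mouse: *C3*, *Cfb*, *Cfp*, *C3ar1*, *C5ar1*, *C1qa*, *C1qb*, *C1qc* and *Serping1*. They were taken by symbol, through their Ensembl identifiers, from the 43432 genes with a row of read counts, and all 9 had a row. RAW264.7, a macrophage line of the mouse, was studied by RNA sequencing in 5 conditions of 2 libraries. The conditions were DMSO (0.5%) without LPS, DMSO with 1 µg/mL of LPS (called DMSO + LPS), and compound **1** at 32, 10 or 3.2 µM with the same LPS. **1** is a keto fatty acid with an α,β-unsaturated carbonyl, which the study isolated from marine cyanobacteria. Wells held 250000 cells, the pretreatment with **1** or DMSO lasted 1 h, and the cells were collected for RNA after 12 h. **1** without LPS was not analysed here. The labels call the libraries biological replicates without naming separate cultures. The p-values therefore measure the spread between these libraries, which may be technical in part.

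Complement is a set of proteins that mark microbes and dying cells for uptake and call in leukocytes. The classical pathway starts when C1q, built from the chains of *C1qa*, *C1qb* and *C1qc*, binds a surface, and the C1 inhibitor encoded by *Serping1* restrains the proteases that follow. All pathways meet at the cleavage of C3, which factor B (*Cfb*) drives in the alternative pathway and properdin (*Cfp*) stabilizes, and the released fragments C3a and C5a act through the receptors *C3ar1* and *C5ar1*. The liver makes most of the circulating proteins, while macrophages are a local source, above all of C1q and properdin.

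Library totals lay between 45966803 and 58976377 counts. Levels are CPM, read counts relative to the TMM-scaled total of the library. All 10 macrophage markers checked (among them *Cd68*, *Lyz2*, *Csf1r* and *Tyrobp*) had counts in every library, with a summed level between 8670 and 13000 CPM. The treatments were seen in *Nos2*, which LPS took from 0.017 to 205.5 CPM and which was 45.16 CPM at 32 µM, in *Il1b*, at 1535 CPM with LPS and 475.2 CPM at 32 µM, and in *Nqo1*, at 2.62 and 16.2 CPM in the same order. A pair of libraries stood apart. The summed counts of 5 epithelial markers (*Krt8*, *Krt18*, *Krt19*, *Epcam*, *Cdh1*) were 2524 in replicate 1 at 10 µM and 352 in replicate 1 at 3.2 µM, against 0 to 8 in the other 8 libraries. The summed counts of 5 fibroblast markers were 379 and 74 in the same libraries, against 11 to 41 in the others. The 5 hepatocyte markers summed to 12 and 6 counts there and to 0 to 2 elsewhere. The fold changes printed for the 10 and 3.2 µM doses are followed by values from a fit without one or both of these libraries, in which the lone library left at a dose is assumed to vary like the other groups.

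The members spanned several orders of magnitude. Per kilobase of the longest transcript, the level in DMSO + LPS was 112.3 CPM for *Cfp*, 56.2 for *C3ar1*, 39.1 for *C5ar1* and 5.39 for *C3*. On that scale it was 0.316 CPM for *C1qc*, 0.252 for *C1qb*, 0.214 for *C1qa*, 0.0934 for *Cfb* and 0.0290 for *Serping1*. Only the first 4 of these genes had more than 100 counts in every library, and the other 5 are given as raw counts. In DMSO the order differed, with *C1qa*, *C1qc* and *C1qb* at 2.35, 2.20 and 1.76 CPM per kilobase and *C3* at 0.526. 8 of the 9 members passed the filter on low counts and entered the test, and *Serping1* did not.

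The promoter sequences of 3 members are shown because these genes carry the main results below: *C3* had the highest rise with LPS among the well-counted members, *Cfp* was the member called lower at 32 µM, and *C1qb* is 1 of the 3 neighbouring C1q genes that fell together with LPS. They were chosen after the values were seen. The sequences are from RefSeq on GRCm38.p6, all on the minus strand, and run from 250 bases before to 50 bases after the annotated start. *C3* covers chr17:57228087-57228386, *Cfp* covers chrX:20931506-20931805 and *C1qb* covers chr4:136886151-136886450. Capitals mark the matches to the antioxidant response element (ARE) searched as TGACNNNGC.
C3: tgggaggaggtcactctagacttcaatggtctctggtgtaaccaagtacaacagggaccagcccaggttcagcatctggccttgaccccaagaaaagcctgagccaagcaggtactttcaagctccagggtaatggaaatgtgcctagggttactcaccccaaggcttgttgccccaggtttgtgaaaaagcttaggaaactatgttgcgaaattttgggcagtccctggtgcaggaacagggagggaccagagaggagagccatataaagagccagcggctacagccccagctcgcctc
Cfp: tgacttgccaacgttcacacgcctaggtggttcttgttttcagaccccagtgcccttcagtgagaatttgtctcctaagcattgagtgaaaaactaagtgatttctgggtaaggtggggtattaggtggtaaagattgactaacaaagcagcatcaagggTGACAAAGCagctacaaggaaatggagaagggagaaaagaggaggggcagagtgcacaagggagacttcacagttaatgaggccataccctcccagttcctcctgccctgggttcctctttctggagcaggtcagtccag
C1qb: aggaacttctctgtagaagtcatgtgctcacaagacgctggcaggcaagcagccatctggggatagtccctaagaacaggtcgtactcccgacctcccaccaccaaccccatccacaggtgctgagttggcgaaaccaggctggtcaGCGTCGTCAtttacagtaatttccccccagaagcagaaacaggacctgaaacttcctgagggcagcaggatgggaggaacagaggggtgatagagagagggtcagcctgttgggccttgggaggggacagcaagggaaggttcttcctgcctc
Promoters of 6 of the 9 members matched an entry (*C3*, *Cfp*, *C3ar1*, *C5ar1*, *C1qb*, *C1qc*), and these were searched on both strands for 4 motifs. The ARE had a match in *Cfp* on the gene's strand, TGACAAAGC starting 90 bases before the start, and in *C1qb* on the opposite strand, printed as GCGTCGTCA, 103 bases before it. The kappa-B motif, searched by name, had a match in *C1qc*, GGGGCTCTCC, 41 bases before the RefSeq start, a place inside the gene as GENCODE annotates it. No match to the interferon-stimulated response element, GAAA and GAAA with any 2 bases between them, or to the gamma-activated sequence, TTCNNNGAA, lay in any of the 6 windows, and *C3*, *C3ar1* and *C5ar1* held none of the 4 motifs. No matches overlapped. Of 32851 promoters of the same length, 12.4% held the ARE letters, 4.51% kappa-B, 3.44% the interferon-stimulated response element and 8.3% the gamma-activated sequence. Binding at these letters was not measured.

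The comparison of DMSO + LPS with DMSO shows which complement genes the stimulus moved in these macrophages. LPS raised *C3*, *Cfb* and the receptors *C3ar1* and *C5ar1* and lowered all 3 C1q genes, while *Cfp* did not pass the test. *C3* was about 10-fold higher and the C1q genes were about 7-fold lower or more. Thus 7 of the 8 members tested were called, that is, their change was 1.5-fold or more at an adjusted p under 0.05, where 28.2% of the 14172 genes tested were called (14.6% higher and 13.6% lower). Throughout, p-values come from edgeR's quasi-likelihood test on all 10 libraries and are adjusted by Benjamini-Hochberg over the 14172 genes. The median log2 fold change of the 8 members was 0.38, beside 0.00 over all genes tested. Scaled by library size alone, the median of all genes moved to -0.20 and 1582 genes were called higher and 2938 lower, against 2072 and 1923 with TMM. The values that follow are relative to the TMM scaling.

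*C3* (ENSMUSG00000024164, chr17:57203970-57228136, minus strand, protein coding, as for all 9 members) encodes the central component. It had 2.69 and 2.71 CPM in the DMSO libraries and 29.6 and 25.8 CPM in the DMSO + LPS libraries. Both LPS libraries lay far above both DMSO libraries. The mean rose 10.3-fold, a log2 fold change of 3.36 ± 0.10 (SE, adjusted p = 7.7e-08 in edgeR).

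*Cfb* (ENSMUSG00000090231, chr17:34856374-34862518), the protease of the alternative pathway C3 convertase, had 0 counts in both DMSO libraries and 16 and 11 in DMSO + LPS. Reads of *Cfb* were thus seen only with LPS, at a level near the limit of these libraries. The gene therefore passed the filter on low counts only through LPS libraries. A count of 0 allows up to 3 counts over the DMSO group (for counting error only). Against that limit the mean level with LPS was 9.89-fold higher. This leaves out the counting error of the 27 counts with LPS (95% interval 17.8 to 39.3). The log2 fold change was 6.71 (95% interval 3.27 to 10.14, edgeR adjusted p = 0.00699). Of the 2825 exonic bases of *Cfb*, 2246 (79.5%) also belong to *Gm20547*, an annotated read-through gene on the same strand, which had 0 counts in all 10 libraries. How reads on shared bases were counted is not given in the sources used here, so the level of *Cfb* is uncertain. The other members shared no exonic base with another gene.

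*C3ar1* (ENSMUSG00000040552, chr6:122847138-122856161), the receptor of C3a, had 143.9 and 143.3 CPM in DMSO and 250.7 and 233.4 CPM in DMSO + LPS. *C5ar1* (ENSMUSG00000049130, chr7:16246743-16259540), a receptor of C5a, had 68.3 and 61.2 CPM in DMSO and 98.5 and 100.4 CPM in DMSO + LPS. In both genes the LPS libraries lay above both DMSO libraries. The log2 fold change was 0.75 ± 0.05 for *C3ar1* (SE, edgeR adjusted p = 1.09e-05) and 0.62 ± 0.07 for *C5ar1* (SE, edgeR adjusted p = 1.39e-04). Both are close to the 1.5-fold threshold. Scaled by library size alone the log2 values were 0.55 and 0.41, under that threshold with edgeR adjusted p of 0.00011 and 0.00132. The call of *C5ar1* was also lost without replicate 2 of DMSO, at a log2 value of 0.52, and at 0.55 with a short-transcript score in the fit, the median relative level of transcripts under 1000 nt in each library. Over all alternatives the adjusted p of *C5ar1* lay between 2.93e-13 and 0.00206.

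The C1q genes lie side by side on chromosome 4, in the order *C1qb* (ENSMUSG00000036905, chr4:136880129-136886187), *C1qc* (ENSMUSG00000036896, chr4:136889804-136893065) and *C1qa* (ENSMUSG00000036887, chr4:136895917-136898803). The gaps are 3616 and 2851 bases. *C1qa* had 152 and 131 counts in DMSO and 6 and 16 in DMSO + LPS. *C1qb* had 107 and 114 counts in DMSO and 18 and 11 in DMSO + LPS. *C1qc* had 169 and 137 counts in DMSO and 18 and 21 in DMSO + LPS. In all 3 genes, every LPS library was far below every DMSO library, as the plot of the low-count genes shows. The mean CPM fell 11.0-fold for *C1qa* (log2 fold change -3.48 ± 0.67 SE), 6.98-fold for *C1qb* (-2.78 ± 0.29) and 6.94-fold for *C1qc* (-2.80 ± 0.30), with edgeR adjusted p of 0.00299, 9.3e-05 and 1.04e-04. The size for *C1qa* rested on single LPS libraries, with log2 values of -2.84 without replicate 1 of DMSO + LPS and -4.51 without replicate 2, and the gene was called in both fits. In bulk RNA, fewer cells that make C1q and less C1q RNA per cell cannot be told apart.

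*Cfp* (ENSMUSG00000001128, chrX:20925454-20931555), which encodes properdin, had 179.4 and 153.9 CPM in DMSO and 178.0 and 189.4 CPM in DMSO + LPS. The groups overlapped, with a log2 fold change of 0.14 (95% interval -0.08 to 0.37, edgeR adjusted p = 0.27), and under library size alone the sign changed to -0.07. *Serping1* (ENSMUSG00000023224, chr2:84765387-84775444) had 3 and 1 counts in DMSO and 1 and 4 in DMSO + LPS, too few to test.

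**Figure D1:**
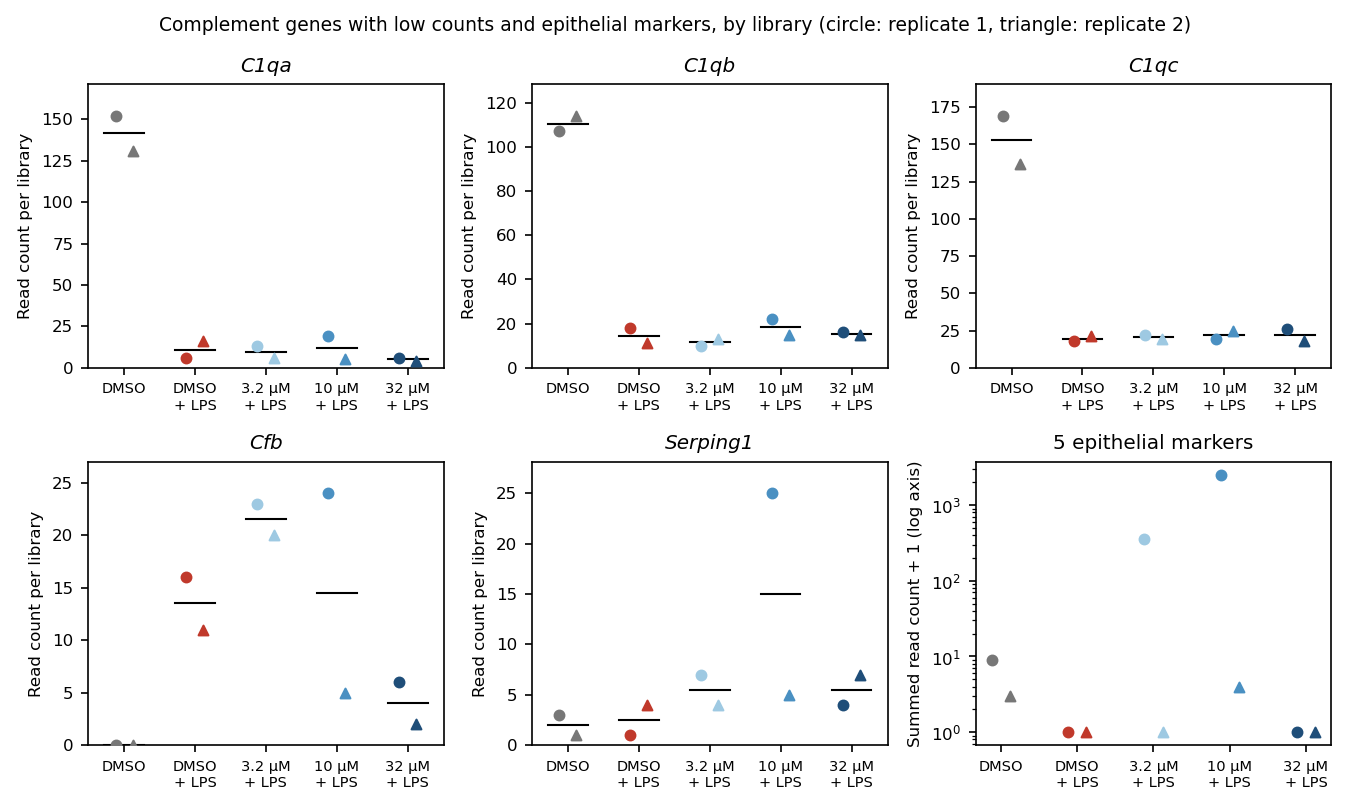
Read counts per library (vertical axis) of *C1qa*, *C1qb*, *C1qc*, *Cfb* and *Serping1* in the 5 conditions, with a line at the mean of the 2 libraries, and the summed count of 5 epithelial markers plus 1 on a log axis. The C1q genes are above 100 counts in both DMSO libraries only. Replicate 1 at 10 µM, with 2524 epithelial counts, has the highest count of *Serping1* (25) and *Cfb* (24). For *Cfb* the 3.2 µM libraries are close, at 23 and 20 counts.

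The comparison of **1** at 32 µM + LPS with DMSO + LPS asks how the highest dose moved these genes in stimulated cells. *Cfp* was 1.76-fold lower, and *C3*, *C5ar1* and *C3ar1* were lower by less than 1.5-fold. The C1q genes stayed at the low counts seen with LPS. With the same rule, 1 of 8 members was called (*Cfp*, lower), where 4.18% of all genes tested were called and 2.91% were called lower. At an adjusted p under 0.05 with no limit on the fold, 4 of the 8 members passed, all lower, where 9.78% of genes passed and 5.72% were lower. These 4 were the members with high counts. The median log2 fold change was -0.49 over the 8 members and 0.01 over all genes tested. The summed level of the 10 macrophage markers, 1 of which is *Itgam*, was 11500 CPM in both DMSO + LPS libraries, 9210 and 8670 CPM at 32 µM, 10200 and 9370 CPM at 10 µM, and 10900 and 10800 CPM at 3.2 µM. Its part in the values of the members was not tested.

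*Cfp* had 110.3 and 98.5 CPM at 32 µM, against 178.0 and 189.4 CPM in DMSO + LPS. Both treated libraries also lay below both libraries of unstimulated cells. The mean was 56.8% of that in DMSO + LPS, and the log2 fold change of -0.82 ± 0.10 (SE) had an edgeR adjusted p of 0.00134. Under all 19 alternatives the gene remained called, with log2 values between -0.90 and -0.74. Against DMSO without LPS the mean at 32 µM was 62.6%, a log2 fold change of -0.67 (edgeR adjusted p = 6.34e-04). That second call was lost without replicate 1 of DMSO, where the log2 value was -0.56.

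*C3* had 18.4 and 19.4 CPM at 32 µM, against 29.6 and 25.8 CPM in DMSO + LPS. The treated libraries lay below both LPS libraries and far above the 2.69 and 2.71 CPM of DMSO. The mean was 68.2% of that in DMSO + LPS (log2 fold change -0.55, 95% interval -0.76 to -0.35, edgeR adjusted p = 0.00575), just short of 1.5-fold. Leaving out replicate 2 of DMSO + LPS or replicate 2 at 32 µM gave -0.65 and -0.59, past that threshold, with edgeR adjusted p of 0.0132 and 0.0314. Without replicate 1 of DMSO + LPS the value was -0.45 with an edgeR adjusted p of 0.0559, the highest among the alternatives, where the lowest was 2.55e-05.

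*C5ar1* had 74.9 and 72.0 CPM at 32 µM, against 98.5 and 100.4 CPM in DMSO + LPS. The treated libraries lay between those of DMSO + LPS and the 68.3 and 61.2 CPM of DMSO, without overlap with either. The mean was 73.9% of that in DMSO + LPS (log2 fold change -0.44, 95% interval -0.60 to -0.28, edgeR adjusted p = 0.00548). Over the alternatives its adjusted p lay between 2.68e-06 and 0.0529, the latter without replicate 2 of DMSO + LPS. Against DMSO, the level at 32 µM differed by a log2 value of 0.18 (edgeR adjusted p = 0.0586), which became -0.02 when scaled by library size alone.

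*C3ar1* had 213.9 and 200.5 CPM at 32 µM, against 250.7 and 233.4 CPM in DMSO + LPS. The groups did not overlap, but the difference was small, 85.6% of the LPS level. Its log2 fold change was -0.22 (95% interval -0.35 to -0.10, edgeR adjusted p = 0.0401), and the adjusted p lay between 0.00104 and 0.27 over the alternatives, at or over 0.05 in 11 of 19. The value of 0.27 came without replicate 1 of DMSO + LPS, at a log2 value of -0.17. Against DMSO, *C3ar1* at 32 µM was higher by 0.53 on the log2 scale (edgeR adjusted p = 9.25e-05), under the 1.5-fold threshold.

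**Figure D2:**
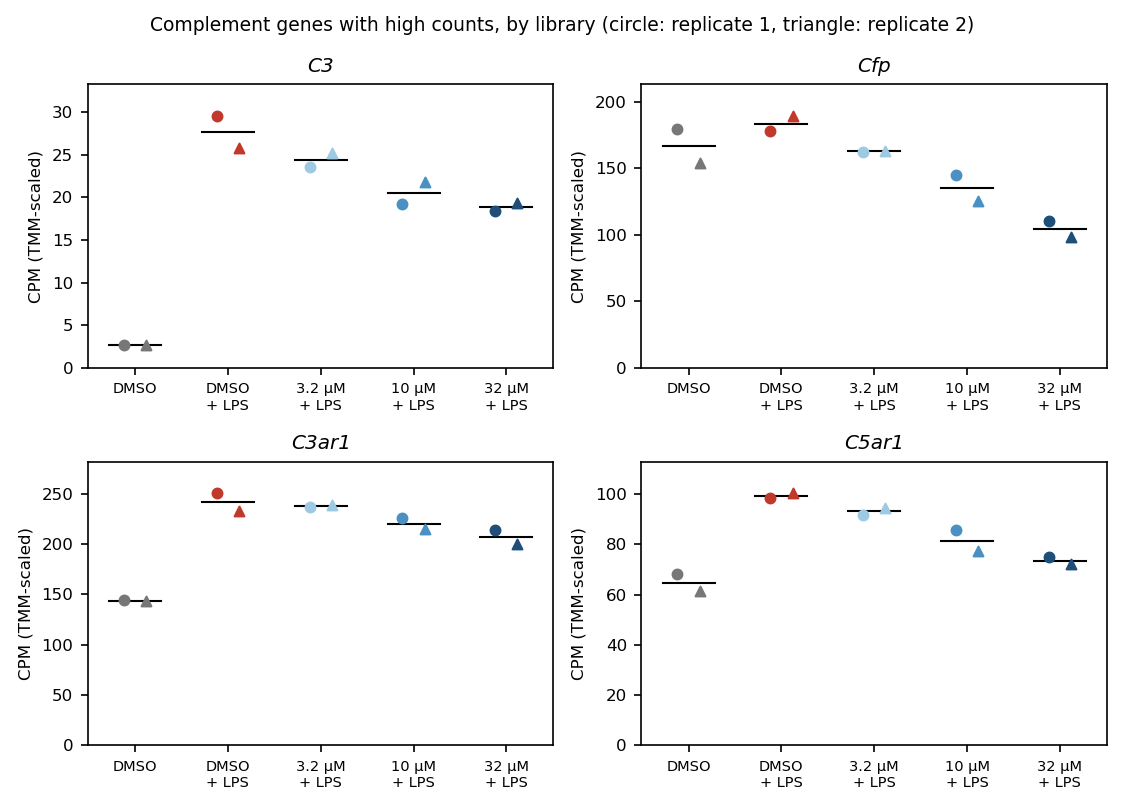
CPM per library (vertical axis, from 0) of *C3*, *Cfp*, *C3ar1* and *C5ar1* in the 5 conditions, with a line at the mean of the 2 libraries. In each gene the mean is highest in DMSO + LPS and smaller at each higher dose, and the 32 µM libraries of *Cfp* (110.3 and 98.5 CPM) lie below those of DMSO.

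The counts of the C1q genes at 32 µM were 6 and 4 for *C1qa*, 16 and 15 for *C1qb*, and 26 and 18 for *C1qc*. They stayed far under the counts of DMSO without LPS. *C1qa* and *C1qc* overlapped with DMSO + LPS in CPM, and *C1qb* did so in raw counts. Their log2 fold changes against DMSO + LPS were -1.02 (95% interval -2.89 to 0.85), 0.25 (-0.46 to 0.97) and 0.30 (-0.42 to 1.01), with edgeR adjusted p of 0.558, 0.8 and 0.69. These intervals are wide, and at this depth a rise of 1.5-fold in any of the 3 genes could not be told from no change. For *Cfb*, 6 and 2 counts were found at 32 µM, where DMSO + LPS had 16 and 11. Both treated libraries were lower, with a log2 value of -1.58 (95% interval -3.56 to 0.40, edgeR adjusted p = 0.339). *Serping1* had 4 and 7 counts.

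Against DMSO without LPS, 6 of the 8 members tested were called at 32 µM, where 27.1% of genes were (13.9% higher and 13.3% lower). *C3* stayed 7.00-fold above DMSO (log2 fold change 2.81, edgeR adjusted p = 2.4e-07), and *C1qa*, *C1qb* and *C1qc* stayed below it by log2 values of -4.50, -2.53 and -2.50. *Cfb* was called higher (edgeR adjusted p = 0.0396), but this call was lost in 7 of the 10 fits that left out 1 library, at adjusted p up to 0.139. These were both libraries of DMSO, of DMSO + LPS and at 3.2 µM, and replicate 1 at 32 µM. *Cfb* had 0 counts in DMSO and 6 and 2 at 32 µM, and passed the filter on low counts only through other LPS libraries. In the fit on the 4 libraries compared *Cfb* was not among the genes tested. The comparison shares the 32 µM libraries with the one above and the DMSO libraries with that of LPS.

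At 10 µM, no member was called against DMSO + LPS by edgeR or DESeq2, where edgeR called 0.861% of genes. At an unadjusted p under 0.05, 4 of the 8 members tested passed in edgeR (*C3*, *Cfp*, *C5ar1* and *C3ar1*), beside 12.1% of all genes. *C3* had 19.2 and 21.8 CPM, both under the DMSO + LPS libraries, and a log2 fold change of -0.43 (95% interval -0.64 to -0.23) with an edgeR adjusted p of 0.0479. Over the alternatives that p lay between 9.11e-04 and 0.38. *Cfp* had 145.2 and 125.7 CPM, again both lower, and its log2 value of -0.44 (95% interval -0.67 to -0.21) had an edgeR adjusted p of 0.0685. *C5ar1* had 85.7 and 77.2 CPM (log2 -0.29, edgeR adjusted p = 0.0928) and *C3ar1* 226.0 and 214.6 CPM (log2 -0.14, edgeR adjusted p = 0.369). In each of these 4 genes both 10 µM libraries were below both DMSO + LPS libraries. Without both libraries that hold epithelial transcripts, the log2 values were -0.35 for *C3*, -0.55 for *Cfp*, -0.36 for *C5ar1* and -0.17 for *C3ar1*, with edgeR adjusted p of 0.38, 0.168, 0.198 and 0.567. In that fit 3 members (*C3*, *Cfp* and *C5ar1*) passed at an unadjusted p under 0.05, beside 9.06% of genes.

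The low-count members at 10 µM differed most between the replicates. *Cfb* had 24 counts in replicate 1 and 5 in replicate 2, *Serping1* 25 and 5, and *C1qa* 19 and 5. *C1qb* had 22 and 15 counts and *C1qc* 19 and 25. Replicate 1 is the library with 2524 epithelial marker counts, and its 25 counts of *Serping1* compare with 1 to 7 in the other 9 libraries. Without that library the log2 fold change against DMSO + LPS went from 0.28 to -1.20 for *Cfb* and from 0.26 to -0.95 for *C1qa*, with edgeR adjusted p of 0.58 and 0.707. Over the alternatives these p lay between 0.419 and 1 for *Cfb* and between 0.521 and 1 for *C1qa*. The part of the epithelial transcripts in these counts was not tested.

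At 3.2 µM, no member and none of all 14172 genes (0%) was called in edgeR, where 600 genes (4.23%) but no member had an unadjusted p under 0.05. The DESeq2 test called 1 gene, which was not a member. *C3* had 23.5 and 25.2 CPM, *Cfp* 162.5 and 163.2, *C5ar1* 91.9 and 94.5, and *C3ar1* 236.6 and 238.6 CPM. In *C3*, *Cfp* and *C5ar1* both libraries were below those of DMSO + LPS, and in *C3ar1* the groups overlapped. The log2 fold changes of these 4 genes lay between -0.19 and -0.03, all with an edgeR adjusted p of 0.999. *Cfb* had 23 and 20 counts, above the 16 and 11 of DMSO + LPS, with a log2 value of 0.79 (95% interval -0.89 to 2.47). Without both libraries that hold epithelial transcripts, *Cfb* was at 0.63 and *C3*, *Cfp*, *C5ar1* and *C3ar1* lay between -0.17 and -0.02, all with an edgeR adjusted p of 1. *Serping1* had 7 and 4 counts, *C1qa* 13 and 6, *C1qb* 10 and 13, and *C1qc* 22 and 19.

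Neighbouring doses were compared directly as well. No member was called between 32 and 10 µM, where 1.32% of genes were, or between 10 and 3.2 µM, where 0.254% were. In edgeR, 1 of the 8 members had an unadjusted p under 0.05 in the first of these (*Cfp*), beside 12.5% of all genes, and 4 in the second (*C3*, *Cfp*, *C5ar1* and *C1qb*), beside 8.38%. DESeq2 called no member in either. The difference of *Cfp* between 32 and 10 µM was -0.38 on the log2 scale (95% interval -0.60 to -0.15, edgeR adjusted p = 0.123). Between 10 and 3.2 µM it was -0.27 for *Cfp*, -0.25 for *C3* and -0.19 for *C5ar1*, with edgeR adjusted p of 0.464, 0.442 and 0.442. *C1qb* lay the other way, at 0.75 (95% interval 0.03 to 1.47, edgeR adjusted p = 0.575). Without both libraries that hold epithelial transcripts, *Cfp* was at -0.27 between 32 and 10 µM (edgeR adjusted p = 0.582), and no member passed at an unadjusted p under 0.05, as against 8.85% of genes. Between 10 and 3.2 µM the values were then -0.38 for *Cfp*, -0.21 for *C3* and -0.29 for *C5ar1* (edgeR adjusted p of 0.789, 0.848 and 0.774). *C1qb* was then at 0.35 (edgeR adjusted p = 0.873), and *Cfp* and *C5ar1* passed at an unadjusted p under 0.05, beside 6.03% of genes.

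The order of the levels differed between the genes. For *C5ar1* it ran from DMSO + LPS over 3.2, 10 and 32 µM to DMSO, and no neighbours in this order overlapped. *C3* and *C3ar1* had the same order, but the libraries at 10 and 32 µM overlapped in *C3*, and those of DMSO + LPS and 3.2 µM overlapped in *C3ar1*. *Cfp* ran from DMSO + LPS over DMSO, 3.2 and 10 µM to 32 µM, and its 3 highest groups overlapped with their neighbours. For the C1q genes DMSO stood alone at the top. Below it, all neighbours overlapped in *C1qa* and *C1qc*. In *C1qb* the CPM at 10 µM, at 32 µM and in DMSO + LPS did not overlap, but 10 and 32 µM were as close as 0.3319 and 0.3318. The raw counts of these groups did overlap (22 and 15, 16 and 15, 18 and 11), so no order is read from them.

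**Figure D3:**
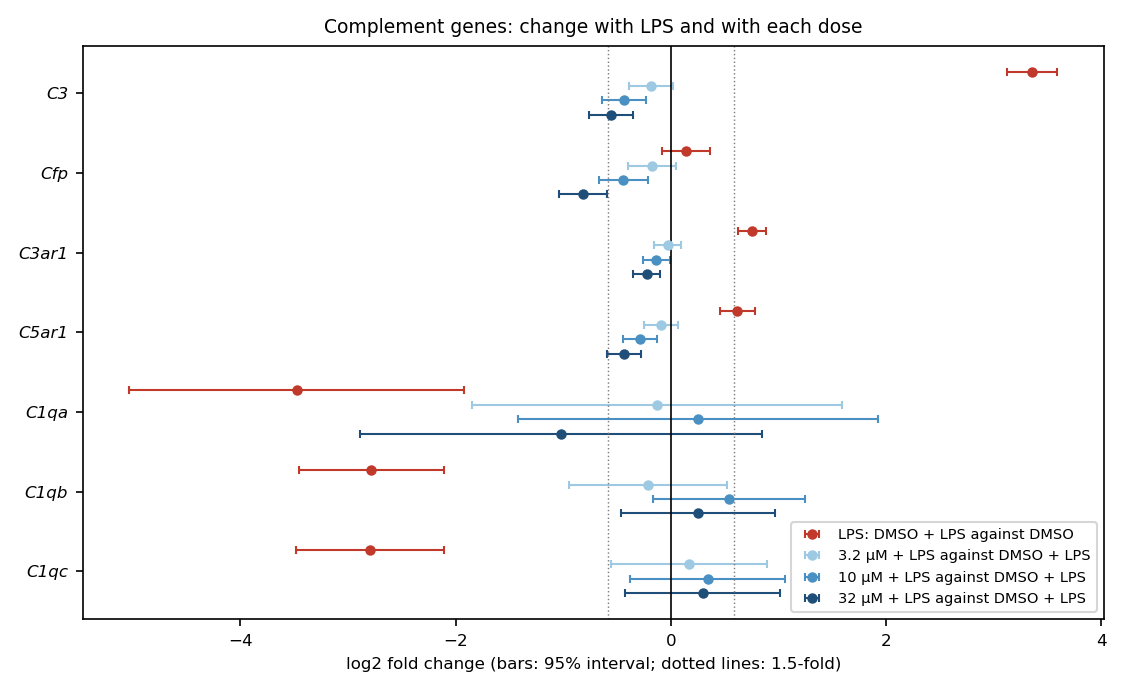
Log2 fold change (horizontal axis) of the 7 members tested other than *Cfb*, for LPS against DMSO and for each dose with LPS against DMSO + LPS, with 95% intervals and dotted lines at 1.5-fold. *C3* is highest with LPS (3.36), *Cfp* at 32 µM (-0.82) is the only dose value called, and the intervals of the C1q genes at the doses all include 0.

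The genes with the most similar patterns were sought for the 4 members whose group means spanned at least 1 on the log2(CPM + 0.5) scale, which were *C3* (span 3.14), *C1qa* (2.28), *C1qc* (1.84) and *C1qb* (1.71). Similarity was Pearson's r over the 5 group means among 1568 genes with a mean of at least 5 CPM and a span of at least 1. The nearest to *C3* were *Nfkbib*, *Gm20056* and *Arid5a*. The nearest were *Pdpr*, *Arhgap18* and *Gins3* for *C1qa*, *Stard9*, *Cit* and *Atad5* for *C1qb*, and *Suv39h1*, *Ccna2* and *Mms22l* for *C1qc*. All had r above 0.99, as did 240 genes for *C3*, 184 for *C1qa*, 147 for *C1qb* and 299 for *C1qc*. The 5 points are dominated by the step between DMSO and the LPS groups, so these names are a description only.

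A further 52 complement genes give the setting, from C1r to the complement receptors. Of these, 11 had 0 counts in every library, and 24 passed the filter on low counts. The tested genes were 7 of 16 in the classical and lectin pathways, the only other one of the alternative pathway (*Cfd*), 2 of 7 terminal components, 2 of 8 fluid-phase regulators, 4 of 8 membrane regulators and 8 of 12 receptors. LPS changed 9 of the 24 genes, 5 higher and 4 lower, beside the 28.2% of all genes, and their median log2 fold change was -0.15.

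Among the receptors, *Itgax*, *Itgam* and *Itgb2* rose with LPS. They encode the chains of the integrins CR3 and CR4, which bind cleaved C3 on targets. *Itgax* had 3.44 and 3.14 CPM in DMSO and 63.4 and 58.9 CPM in DMSO + LPS (log2 fold change 4.22, edgeR adjusted p = 5.76e-09). *Itgb2*, the shared chain, had 241.1 and 243.4 CPM in DMSO and 599.4 and 590.5 CPM in DMSO + LPS (log2 1.30, edgeR adjusted p = 9.3e-08). *Itgam* had 213.9 and 234.0 CPM in DMSO and 458.2 and 425.3 CPM in DMSO + LPS (log2 0.98, edgeR adjusted p = 7.39e-06). In all 3 genes the groups were far apart.

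*Colec12*, a scavenger receptor of the collectin family, fell from 465.7 and 513.3 CPM in DMSO to 255.2 and 246.7 CPM in DMSO + LPS (log2 fold change -0.96, edgeR adjusted p = 3.05e-05). *Cd59a*, which blocks the membrane attack complex, rose from 5.60 and 5.58 to 8.85 and 8.97 CPM (log2 0.67, edgeR adjusted p = 4.31e-04), a call lost with scaling by library size alone (log2 0.47). A further 3 calls, named after their values were seen, were *Cfd*, the protease factor D (log2 2.71), the second C5a receptor *C5ar2* (-2.10) and *Lrp1* (-0.66). The call of *Cfd* was lost without replicate 2 of DMSO (log2 2.04, edgeR adjusted p = 0.112), without replicate 1 of DMSO + LPS (2.70, 0.0652) and without replicate 2 of DMSO + LPS (2.71, 0.0635). That of *Lrp1* was lost without replicate 2 of DMSO (log2 -0.58), without replicate 2 of DMSO + LPS (-0.58) and with the short-transcript score (-0.52). *C5ar2* had 126 and 109 counts in DMSO and 25 and 24 in DMSO + LPS, opposite in direction to *C5ar1*.

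At 32 µM, 2 of the 24 genes were called against DMSO + LPS, beside 4.18% of all genes, and the median was -0.09. *Itgam* had 276.9 and 277.2 CPM, below the 458.2 and 425.3 CPM of DMSO + LPS and above DMSO (log2 fold change -0.67 ± 0.07 SE, edgeR adjusted p = 4.69e-04). *Thbd*, thrombomodulin, which aids the inactivation of C3b, had 3.09 and 2.92 CPM against 1.27 and 1.53 CPM (log2 1.10 ± 0.16 SE, edgeR adjusted p = 0.00415). *Itgb2*, the chain that pairs with *Itgam*, and *Itgax* had log2 values of 0.11 (95% interval 0.01 to 0.20) and -0.06 (-0.20 to 0.09). *Colec12* had 253.5 and 288.0 CPM, overlapping with DMSO + LPS. At 10 and 3.2 µM none of the 24 genes was called, and *Itgam* had log2 values of -0.44 (edgeR adjusted p = 0.0143) and -0.20 (edgeR adjusted p = 0.999). Without both libraries that hold epithelial transcripts these were -0.37 (edgeR adjusted p = 0.184) and -0.18 (edgeR adjusted p = 1). At an unadjusted p under 0.05, 3 of the 24 passed in edgeR at 10 µM, beside 12.1% of all genes, and 2 at 3.2 µM, beside 4.23%. Without both libraries 3 passed at 10 µM, beside 9.06% of genes, and 1 at 3.2 µM, beside 2.18%. DESeq2 called none of the 24 at either dose.

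**Figure D4:**
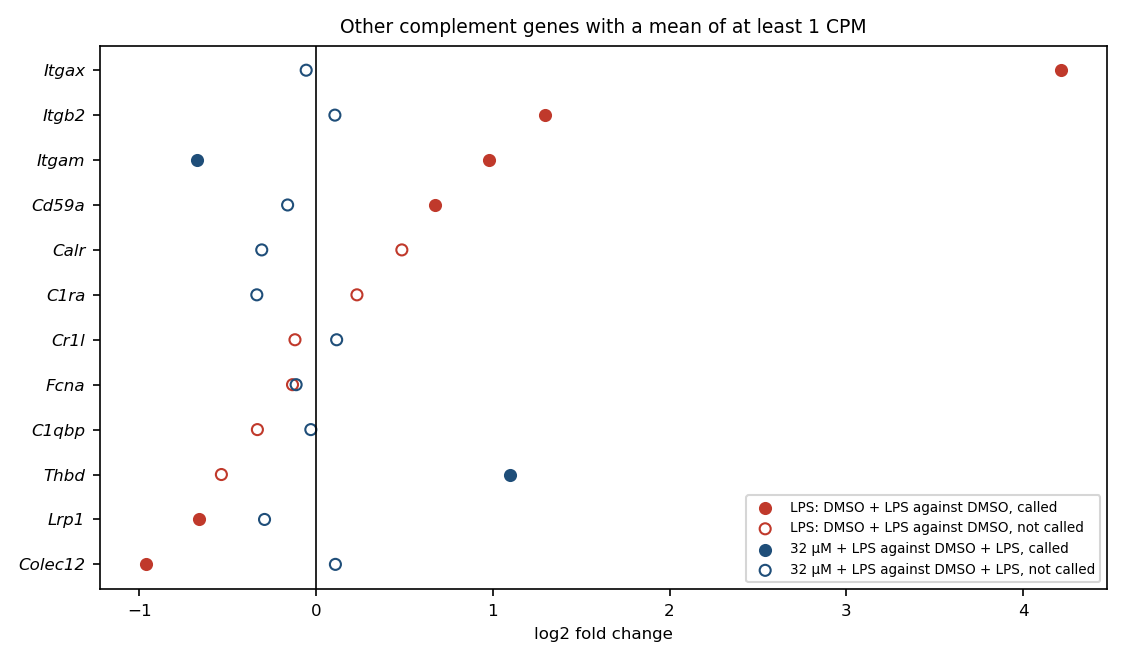
Log2 fold change (horizontal axis) of 12 other complement genes with a mean of at least 1 CPM, for LPS against DMSO (red) and 32 µM + LPS against DMSO + LPS (blue), filled where called. *Itgax* (4.22) and *Colec12* (-0.96) mark the ends of the LPS values plotted, and at 32 µM only *Itgam* (-0.67) and *Thbd* (1.10) are filled.

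Several low-count genes of this further list also stood apart in replicate 1 at 10 µM. *Clu* had 84 counts there and 23 in replicate 2, *C4b* 39 and 6, and *Cd55* 20 and 0, while *Cfd* had 9 and 39. In the other 8 libraries *Cd55* had 0 to 2 counts and *C4b* 5 to 15. These genes were named after their values were seen, and the part of the epithelial and fibroblast transcripts in them was not tested.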

How the data were processed

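Poly(A)-selected, stranded libraries (10, all used) were sequenced by the authors with paired reads on 1 lane. They deposited raw read counts per mouse Ensembl gene, without normalization. The submitters' processing notes list Trimmomatic, FastQC, STAR, DESeq2 and mm10, while the counter, annotation and use of strand are not given in the sources used here. Symbols and positions came from GENCODE M21 (GRCm38), which matched 42548 of 43432 identifiers. Genes passing filterByExpr (minimum count 10) were scaled by TMM and fitted with 1 mean per condition in edgeR 4.0.16 (R 4.3.3, limma 3.58.1), leaving 5 residual degrees of freedom. Quasi-likelihood tests covered 7 comparisons. With 2 libraries against 2, permutation could not reach p = 0.05, so tests rest on the spread pooled over groups and genes. The steps were tested on simulated data. Alternatives were DESeq2 1.42.0 (size factors or Wald test), unscaled library sizes, testing genes of any count or only those averaging 5 CPM or more, the replicate number as a block, a score of short transcripts (under 1000 nt), the 4 libraries compared, and leaving out each library. The members, lists and tests were chosen with earlier results of these data known. Named were all members, called further genes with a mean of at least 1 CPM (at most 6 per comparison), the 3 most similar genes for each member with a span of at least 1, and treatment checks. That rule would print promoters of members called higher with LPS and lower at 32 µM, which were none. Of further marker lists, *Cd3e* and *Cd8a* had 0 counts in every library. T cell markers, of which 1 or 2 of 5 had counts in each library, summed to 4.63 to 11.6 CPM. B cell markers summed to at most 0.465 CPM. The values of 1 gene of the further list are not reported here.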

Additional observations from a re-analysis of the deposited data

How the results depend on the processing

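Each count of called members or further genes, for a comparison in an alternative fit, was taken as a case. In 202 cases the count was within 1.5 times of that reported or stayed at 0, and in 7 it was not. With a mean of at least 5 CPM, which leaves 4 members, 10 further genes and 9566 genes in all, 3 members were called with LPS (27.6% of all genes), 2 at 32 µM against DMSO (26.6%), and 1 further gene (*Itgam*) at 32 µM against DMSO + LPS (4.4%). At 10 µM 1 further gene was called with the short-transcript score (*Thbd*), beside 1.64% of all genes, and *Clu* was called without replicate 2 at 10 µM. Without replicate 2 of DMSO + LPS or replicate 2 at 32 µM, *C3* passed 1.5-fold at 32 µM against DMSO + LPS, with log2 values of -0.646 and -0.589. Of the single members' log2 values, 997 kept direction and side of the threshold, 12 calls were lost, 2 were gained and 21 signs changed.

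The sign changes were in values that had not been called. Scaled by library size alone, *Cfp* with LPS was -0.0667 and *C5ar1* at 32 µM against DMSO -0.0203, and *Cfb* at 10 µM was -0.282 with the short-transcript score. Leaving out each library in turn, log2 values against DMSO + LPS ranged from -1.66 to 0.0147 for *C1qa* at 32 µM, and at 10 µM from -1.20 to 0.97 for *Cfb* and from -0.946 to 1.29 for *C1qa*. At 3.2 µM they ranged from -0.0774 to 0.0261 for *C3ar1*, -0.85 to 0.908 for *C1qa*, -0.398 to 0.0227 for *C1qb* and -0.068 to 0.437 for *C1qc*. Between 32 and 10 µM *C1qc* ranged from -0.268 to 0.197. Between 10 and 3.2 µM *Cfb* ranged from -1.99 to 0.193, *C1qa* from -0.827 to 1.1 and *C1qc* from -0.0727 to 0.374. Without both libraries with epithelial transcripts, chosen after seeing the data, *Cfb* was -1.20 and *C1qa* -0.948 at 10 µM against DMSO + LPS, and *C1qa* was -0.113 between 10 and 3.2 µM. The cause was not tested.

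Over all genes, 2641 were called with LPS and 2547 at 32 µM against DMSO with a mean of at least 5 CPM, of 9566 tested. At 10 µM, the 122 calls became 232 with the short-transcript score, 41 on the 4 libraries compared, 52 to 227 without 1 library and 45 without both libraries with epithelial transcripts. At 3.2 µM, 0 calls became 1 without a count filter or with DESeq2, 6 with the score and 66 on 4 libraries. Between 32 and 10 µM, 187 became 297 with the score, 5 on 4 libraries and 122 without both libraries. Between 10 and 3.2 µM, 36 became 117, 0 and 4 in that order, and 5 to 66 without 1 library. Library size alone gave 1490 higher and 2798 lower calls at 32 µM against DMSO, where TMM gave 1964 and 1883.

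The replicate number as a block left the members called at 7 with LPS, 1 at 32 µM and 0 at 10 and 3.2 µM. In the same order, 28.9%, 4.35%, 1.23% and 0% of all genes were called in that fit. Deviations of same-numbered libraries correlated at 0.385 to 0.851 among DMSO and the 3 doses and at -0.433 to -0.211 between these and DMSO + LPS. The labels name no shared batch, so the numbers were not taken as pairs. Replicates differed by more than sampling noise in every condition. Counting error limits *Cfb*, the C1q genes with LPS and *Serping1*.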
